A study of Mus musculus with 4 samples.

Results

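The genes described here are 36 genes of hypoxia and glycolysis: the alpha subunit of the hypoxia-inducible factor (HIF) and its oxygen sensors, genes that HIF is known to induce, and the enzymes and transporters that carry glucose to lactate. They were matched by symbol to the probe sets of an Affymetrix Mouse 430A 2.0 array, a chip on which each gene is read by 1 or more sets of short probes. A probe set counted only if its annotation gave that symbol alone, and a gene with several took the one with the highest mean signal over the 4 arrays. A probe set was found for 32 of the 36 genes, out of 12394 genes on the array with such a probe set. Gpi1, Pfkfb4, Eno1 and Bnip3l had none and are not analysed here. Of the 32 genes, 25 had a mean signal above the filter of 51.87 and entered the tests, and the remaining 7 are described by their values at the end of the gene accounts.

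The study set a pool of NF639 cells resistant to EGCG (epigallocatechin 3-gallate), a polyphenol abundant in green tea, against the original NF639 population (Resistant 1 and 2 against Original 1 and 2, 2 arrays in each group). NF639 is a mouse mammary tumour line that arose in an animal with an ErbB2 transgene, and both populations share that origin. The resistant cells are 1 pool, the labels give neither a dose nor a time of exposure, and they do not say whether EGCG was in the medium at harvest. The RNA came from separate experiments per the series design, the labels do not tie a replicate number to an experiment, and p-values measure the spread between these arrays.

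In cells with enough oxygen, prolyl hydroxylases mark HIF alpha subunits for destruction through the von Hippel-Lindau protein. When oxygen is low the mark is not made, and HIF pairs with its partner ARNT, binds a short DNA element and raises the transcription of glucose transporters, glycolytic enzymes, mitophagy receptors and angiogenic factors. Tumour cells often keep glycolysis high in the presence of oxygen as well, a state long known as aerobic glycolysis.

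Values are MAS5 signal intensities, brightness per probe set on a linear scale that the authors scaled to a common level on each array. Differences are Resistant minus Original on the log2(signal + 3) scale, on which changes of dim genes appear smaller than they are. Tests are from limma with Benjamini-Hochberg adjustment over all 13576 retained probe sets. In RNA from whole cultures, fewer cells of a type and less RNA per cell cannot be told apart.

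The arrays differed by replicate number in their hybridisation controls. All 14 probe sets of the spiked controls BioB, BioC and BioD were brighter on array 2 than on array 1, by 1.39 to 2.46 times in the resistant pool and by 1.39 to 2.36 times in the original population, so values are also given within each replicate number. The 4 probe sets of the brighter spike Cre differed less, by 1.09 to 1.24 times in the resistant pool and by 0.991 to 1.23 times in the original population. Original 2 stood apart in its 18S ribosomal RNA signal from the 5′ probe set, at 346.7 and 624.3 on the resistant arrays against 362.4 and 4005.3 on the original ones, and in the median poly-A spike signal, at 96.5 and 95.1 against 92.5 and 182.6. Of 7 epithelial markers, 6 (Epcam, Cdh1, Krt8, Krt18, Krt19 and Cldn4) lay under the filter on these arrays. The exception was Erbb2, with signals of 280.7 and 326.2 in the resistant pool and 319.7 and 299.4 in the original population. Of 7 leukocyte and endothelial markers, 5 lay under the filter. The signal summed over all 7 of these markers was 291 and 242 in the resistant pool against 365 and 257.1 in the original population. Of 7 fibroblast markers, 5 were retained, and the signal summed over all 7 was 5530.4 and 4740.1 against 5918.9 and 5196.8. Those 5 did not move together: Col3a1 passed higher (1.99; limma, adjusted p = 0.0477), Col1a1 was fitted 0.99 higher, and Dcn (-2.15) and Col1a2 (-0.62) were fitted lower, all 4 without overlap, while Pdgfra (0.72) overlapped. A second retained probe set of Col1a1, not used here, had a difference of -0.064. With the replicate number as a block, 3 of the 5 markers passed higher and 2 lower, against 2.36% and 3.09% of all retained probe sets. The part of these markers in the results below was not tested.

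As a group the hypoxia and glycolysis genes had lower signals in the resistant pool. The fitted difference was below 0 for 22 of the 25 retained genes (88%), against 50.5% of all retained probe sets, and the median difference was -0.40, against -0.0035 over all. The arrays of the groups did not overlap for 11 genes, all lower in the resistant pool, where 18.3% of all retained probe sets were lower without overlap. None of the 25 was higher without overlap, against 17.8% of all. With limma and Benjamini-Hochberg adjustment 0 of the 25 passed in either direction, where 0.228% of all retained probe sets did. At an unadjusted p under 0.05 there were 9, all lower, against 4.02% of all probe sets that were lower at that level. When the replicate number was added to the fit as a block, 11 passed lower and 0 passed higher, where 3.09% of all probe sets passed lower and 2.36% higher. The 11 were Slc2a1, Pfkl, Aldoa, Tpi1, Pgam1, Pdk1, Ldha, Bnip3, Higd1a, Kdm3a and P4ha1, so that their calls depend on the block. The p-values of that fit rest on a spread pooled over probe sets by brightness, since it leaves 1 residual degree of freedom.

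**Figure D1:**
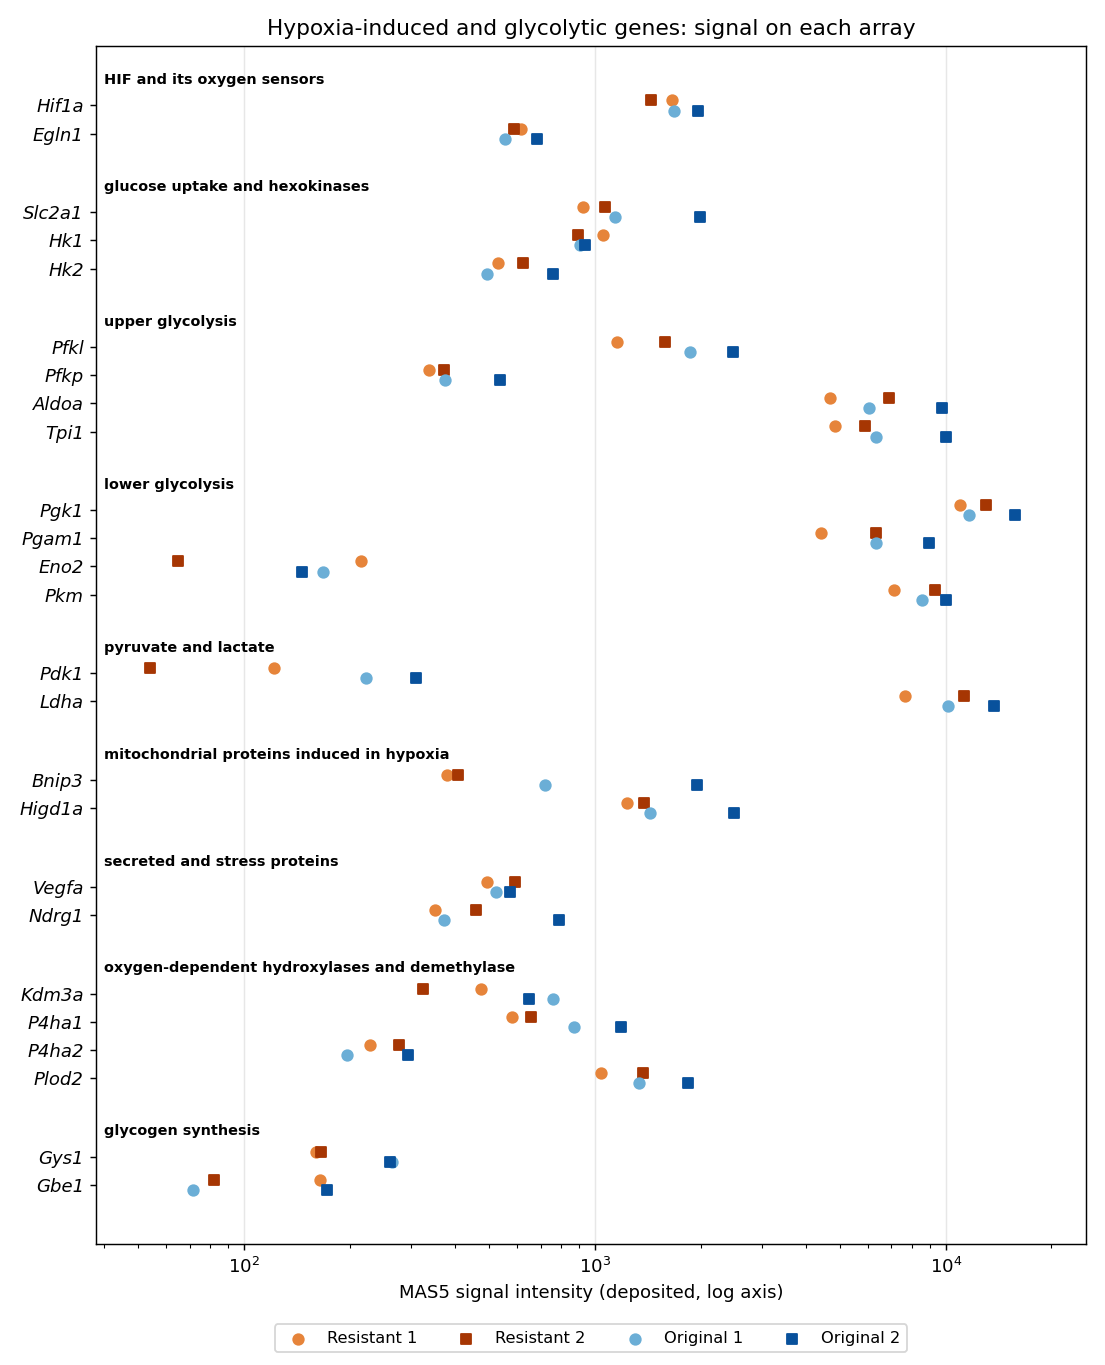
Deposited MAS5 signal (log axis) of the 25 retained genes on each of the 4 arrays, with Resistant 1 and 2 drawn above Original 1 and 2 in each row and genes ordered by role. Original 2 had the highest signal for 20 of the 25 genes, and the resistant arrays of Pdk1, Bnip3, Kdm3a, P4ha1, Gys1 and Pfkl lay below both original arrays.

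The widest gap was that of Pdk1, the kinase that inactivates pyruvate dehydrogenase and so keeps pyruvate out of the mitochondrial cycle. Its signal was 121.9 and 54.1 in the resistant pool, against 222.9 and 309.6 in the original population. Both resistant arrays lay below both original ones, and they also differed from each other more than the original arrays did. The difference was -1.65 ± 0.39 (SE), with a 95% interval of -2.53 to -0.78, which is 3.15-fold lower on this scale, and it did not pass (limma, adjusted p = 0.208), whereas it passed with the replicate number as a block (limma, adjusted p = 3.12e-07). The difference was -0.86 within number 1 and -2.45 within number 2, a gap that the p-value with the block does not weigh. A dimmer second probe set of Pdk1 read 96.8 and 83.6 against 190.2 and 217.9, a difference of -1.15.

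Bnip3 encodes a receptor of the outer mitochondrial membrane that directs mitochondria to autophagy in hypoxia. Its signal was 378.7 and 408.3 in the resistant pool, against 721.5 and 1958.7 in the original population. The resistant arrays were close to each other, and Original 2 was far above Original 1. The difference was -1.59 ± 0.37 (SE) and did not pass (limma, adjusted p = 0.193), whereas it passed with the block (limma, adjusted p = 9.13e-15). It was -0.93 between the arrays numbered 1 and -2.26 between those numbered 2, a gap that the p-value with the block does not weigh. Leaving out 1 array moved the difference between -2.31 (without Original 1) and -0.87 (without Original 2). Higd1a, a small hypoxia-induced protein of the inner mitochondrial membrane, had 1232.7 and 1378.1 against 1436.7 and 2490.5, a difference of -0.54 ± 0.24 (SE; limma, adjusted p = 0.671, and 0.0207 with the block). Its arrays did not overlap, and Original 1 lay nearer to the resistant arrays than to Original 2.

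Kdm3a and the collagen hydroxylases use oxygen as a substrate. Kdm3a, a demethylase of histone H3 lysine and a known HIF target, read 473.8 and 324.5 in the resistant pool, against 759.2 and 649.5 in the original population. The groups were well apart, and here the arrays numbered 2 were the lower ones in both groups. The difference was -0.84 ± 0.23 (SE; limma, adjusted p = 0.32, and 0.000972 with the block). P4ha1, the catalytic subunit of collagen prolyl hydroxylase, had signals of 579.5 and 657.7 against 872.3 and 1189.1, a difference of -0.72 ± 0.21 (SE; limma, adjusted p = 0.352, and 0.00318 with the block). Its second probe set read 361.8 and 413.7 against 697.8 and 725.3, a difference of -0.87. Both probe sets thus separated the groups with no overlap. The paralog P4ha2 had 228.3 and 275.7 in the resistant pool and 197.2 and 293.6 in the original population, so that its groups overlapped, with a difference of 0.058 and a 95% interval of -0.56 to 0.67. Plod2, which hydroxylates collagen lysines, had 1037.7 and 1371.3 against 1334.1 and 1847.0, and its groups also overlapped (-0.40 ± 0.21, SE).

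The promoters of the 4 genes with the largest differences are shown because HIF binds the core element ACGTG or GCGTG. Each stretch is taken from RefSeq (GRCm38.p6), runs 5′ to 3′ on the gene's own strand and ends at the base before the annotated 5′ end of the gene. The stretches differ in length because some windows of 250 bases before a start site reach past that end, and those bases are not printed. Capitals mark ACGTG or GCGTG on either strand.
Pdk1, chr2:71872974-71873214, plus strand: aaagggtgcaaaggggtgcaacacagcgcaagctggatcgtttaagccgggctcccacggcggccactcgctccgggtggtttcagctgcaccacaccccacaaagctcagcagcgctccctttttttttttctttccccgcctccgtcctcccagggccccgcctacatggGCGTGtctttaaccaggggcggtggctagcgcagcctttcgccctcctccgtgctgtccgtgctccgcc
Bnip3, chr7:138909507-138909756, minus strand: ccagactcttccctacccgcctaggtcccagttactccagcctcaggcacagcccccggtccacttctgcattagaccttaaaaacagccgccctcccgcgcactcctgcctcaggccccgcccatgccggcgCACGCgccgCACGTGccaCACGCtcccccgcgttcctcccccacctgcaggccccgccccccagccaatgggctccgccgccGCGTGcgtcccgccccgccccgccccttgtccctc
Kdm3a, chr6:71632991-71633167, minus strand: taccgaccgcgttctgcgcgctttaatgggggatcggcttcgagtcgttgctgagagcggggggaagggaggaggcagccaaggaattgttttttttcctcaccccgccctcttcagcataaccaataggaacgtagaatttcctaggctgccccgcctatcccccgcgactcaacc
P4ha1, chr10:59323046-59323196, plus strand: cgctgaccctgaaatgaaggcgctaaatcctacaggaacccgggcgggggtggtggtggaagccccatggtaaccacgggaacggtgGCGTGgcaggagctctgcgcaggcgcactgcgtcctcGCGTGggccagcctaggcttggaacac

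Bnip3 held 5 such matches in 250 bases, of which 2 lie on opposite strands of the same palindrome CACGTG, an element that other factors bind as well. P4ha1 held 2 matches in 151 bases, Pdk1 1 in 241 bases and Kdm3a 0 in 177 bases. In the whole windows of 300 bases used for the shares below, Bnip3 held 5 matches, P4ha1 3, Pdk1 2 and Kdm3a 1. Over windows from 250 bases before to 50 bases after the start site, 1 per gene, ACGTG was found for 11 of the 23 retained genes that have a window (47.8%), against 27.2% of 6176 genes with a retained probe set. GCGTG was found for 12 of the 23 (52.2%), against 55.2%, and either motif for 15 (65.2%), against 67%. Taking both motifs together, the share was thus near that of the other genes measured on these arrays. A match is a run of letters and not a measured binding site.

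Among the genes of HIF itself, Hif1a read 1653.8 and 1445.9 in the resistant pool, against 1674.9 and 1964.9 in the original population. The groups did not overlap, though Resistant 1 and Original 1 were nearly equal. The difference was -0.23, with a 95% interval of -0.62 to 0.16. All 4 probe sets of Hif1a were lower in the resistant pool, including 1 under the filter, with differences as far as -0.80 among the 3 retained. The dimmer probe set at -0.80 read 195.2 and 157.5 against 377.9 and 250.2 and passed only with the block (limma, adjusted p = 0.0163). The probe set used for Hif1a did not pass in either fit. Egln1, the main prolyl hydroxylase that senses oxygen, had 617.6 and 588.9 against 553.7 and 686.1, with overlapping groups and a difference of -0.032. The dimmer second probe set of Egln1 read 289.2 and 313.2 against 327.5 and 488.8, lower without overlap, with a difference of -0.41.

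At the entry of glucose, Slc2a1, the widespread glucose transporter GLUT1, had signals of 923.6 and 1068.4 in the resistant pool, against 1140.3 and 1990.5 in the original population. The groups did not overlap, and Original 2 stood far above the other arrays. The difference was -0.60 ± 0.25 (SE; limma, adjusted p = 0.613, and 0.0111 with the block), and all 3 of its probe sets were lower. The hexokinases, which trap glucose as its phosphate, differed less in fitted size: Hk1 read 1053 and 897.9 against 904.4 and 940, and Hk2 read 528.9 and 623.6 against 493.9 and 757.7. Both overlapped between the groups, with differences of 0.075 (95% interval -0.33 to 0.48) and -0.092 (-0.62 to 0.44). Their difference from Slc2a1 was not tested.

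In upper glycolysis all 4 retained genes were fitted below 0, with a median of -0.51. For 3 the groups did not overlap, all lower, against 18.3% of all retained probe sets. Pfkl, the liver form of phosphofructokinase, the committed step of the pathway, had 1158.9 and 1581.3 in the resistant pool, against 1866.7 and 2478.4 in the original population. Its difference was -0.67 ± 0.21 (SE; limma, adjusted p = 0.414, and 0.00117 with the block) and was nearly the same within the arrays numbered 1 (-0.69) and 2 (-0.65). The second probe set of Pfkl gave -0.73. Pfkp, the platelet form, had 337.7 and 370.5 against 373.6 and 537.4, a difference of -0.34 in which Resistant 2 and Original 1 almost met. Aldoa, the aldolase that splits the hexose, had 4685.8 and 6905.7 against 6051.2 and 9723. Its groups overlapped, yet the resistant array was the lower of the pair at each number (-0.37 and -0.49), and so it was for each of its 4 probe sets over the group means. It passed with the block (limma, adjusted p = 0.00678) and not without it (0.787). Tpi1, which interconverts the triose phosphates, had 4830.2 and 5885.8 against 6318 and 10042.6, a difference of -0.58 ± 0.23 (SE; limma, adjusted p = 0.576, and 5.5e-05 with the block).

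In lower glycolysis all 4 retained genes were again fitted below 0, with a median of -0.29, and the groups overlapped for each. Pgam1, the phosphoglycerate mutase, had 4406.2 and 6337.5 in the resistant pool, against 6334.3 and 8959.4 in the original population, and Resistant 2 equalled Original 1 almost exactly. Its difference was -0.52 within number 1 and -0.50 within number 2, and it passed with the block (limma, adjusted p = 0.000732) and not without it (0.652). Pgk1, which makes the first ATP of the pathway, had 10995.7 and 13038.1 against 11633.1 and 15735.5 (-0.18, 95% interval -0.62 to 0.27), and 1 of its 3 probe sets pointed the other way at 0.19. Pkm, the pyruvate kinase, had 7116 and 9337.3 against 8545.2 and 9997.6 (-0.18, 95% interval -0.61 to 0.24). Eno2, the neuronal enolase, had 214.9 and 64.8 against 167.5 and 146.6. The resistant arrays of Eno2 enclosed the original ones, and its difference was 0.35 within number 1 and -1.14 within number 2. At the end of the pathway Ldha, which turns pyruvate into lactate, had 7632.4 and 11246.6 against 10153.1 and 13703.4, with overlapping groups and a difference of -0.35 ± 0.23 (SE; limma, adjusted p = 0.824, and 0.0191 with the block).

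Glycogen synthesis is represented by 2 genes. The probe set used for Gys1, the glycogen synthase of muscle and many other cells, had the tightest replicates of all the genes that separated. Its signals were 160.9 and 166 in the resistant pool, against 263.9 and 260.4 in the original population. Its difference was -0.67 ± 0.25 (SE; limma, adjusted p = 0.565, and 0.0814 with the block), and it was -0.70 within number 1 and -0.64 within number 2. A dimmer second probe set of Gys1 was less tight, at 68 and 91.6 against 156.1 and 130.6. Its difference was -0.83, with -1.16 within number 1 and -0.50 within number 2. Gbe1, the branching enzyme, had 165.1 and 82.3 against 71.4 and 172.3. The groups overlapped fully, with a difference of 0.067 and a 95% interval of -0.98 to 1.11.

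Vegfa, the angiogenic growth factor and a classical HIF target, had 493.6 and 592.7 in the resistant pool and 521.1 and 572.2 in the original population. The resistant arrays enclosed the original ones, the difference was -0.015 and the 95% interval ran from -0.47 to 0.44. Ndrg1, a stress-responsive gene induced in hypoxia, had 350.2 and 457.9 against 370.5 and 788.5, and all 5 of its probe sets were lower. Its difference was -0.082 within number 1 and -0.78 within number 2, and the groups overlapped.

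**Figure D2:**
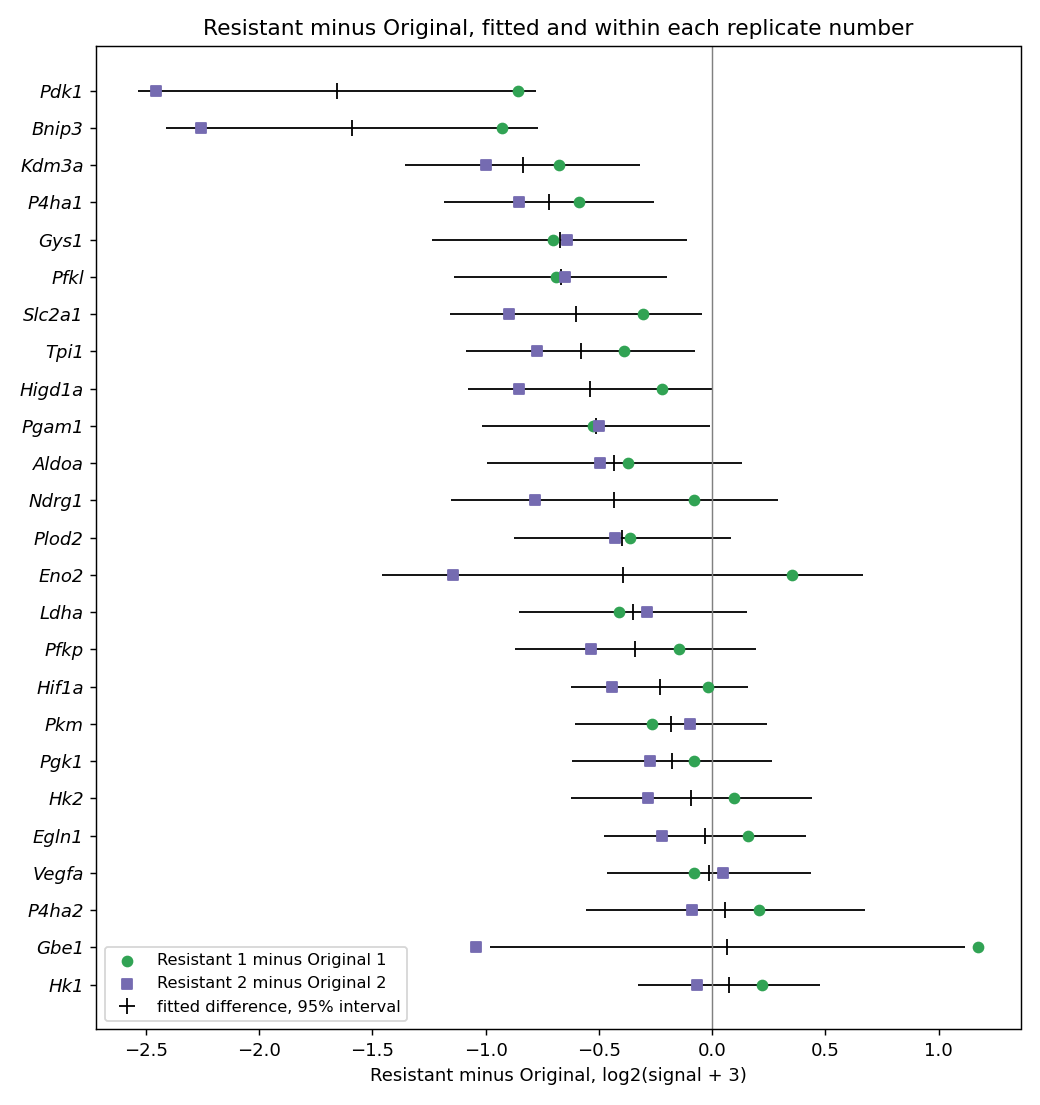
Resistant minus Original on the log2(signal + 3) scale for the 25 retained genes, as fitted with its 95% interval (black) and within replicate numbers 1 (circles) and 2 (squares). The difference was below 0 at both numbers for 18 genes, and the 2 numbers lay far apart for Pdk1, Bnip3, Eno2 and Gbe1.

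The 7 genes with a mean signal under the filter were not tested. Slc16a3, the lactate exporter MCT4, had signals of 18 and 18.7 in the resistant pool and 13.8 and 16.2 in the original population. Pfkfb3, which makes the activator of phosphofructokinase, had 22.9 and 24.8 against 33 and 37.6, and Egln3, a HIF-induced prolyl hydroxylase, had 15 and 22.4 against 17.3 and 53.3. Only the first and the second of these separated the groups. Aldoc, the brain aldolase, had 35.8 and 8.3 against 51.6 and 18.4. The probe sets used for Pfkfb3, Egln3 and Aldoc had differences below 0. The other probe set of each, also under the filter, had a difference above 0 (0.28, 0.18 and 0.24). Car9, the cell-surface carbonic anhydrase often used as a marker of hypoxia, had 27.5 and 1.6 against 45 and 2.7, a split by replicate number and not by population. The probe sets used for the neuronal glucose transporter gene Slc2a3 and the peptide hormone gene Adm did not exceed 20.5 on any array. Of the 4 probe sets of Slc2a3, all under the filter, 2 had a difference above 0 and 2 one below 0, and 1 of those not used reached 21.2 on Resistant 2. Signals this low carry large relative errors, and they do not show that a gene is not expressed.

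The arrays themselves differed for these genes beyond the populations. Original 2 gave the highest signal for 20 of the 25 genes (80%), against 20.2% of all retained probe sets, and the lowest for 0, against 28.7%. Resistant 1 gave the lowest signal for 16 (64%), against 22% of all. As deviations from each gene's mean over the 4 arrays, the medians were -0.29 and -0.10 on Resistant 1 and 2 and -0.045 and 0.43 on Original 1 and 2. Over all retained probe sets these medians were 0.029, -0.026, 0.034 and -0.027.

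**Figure D3:**
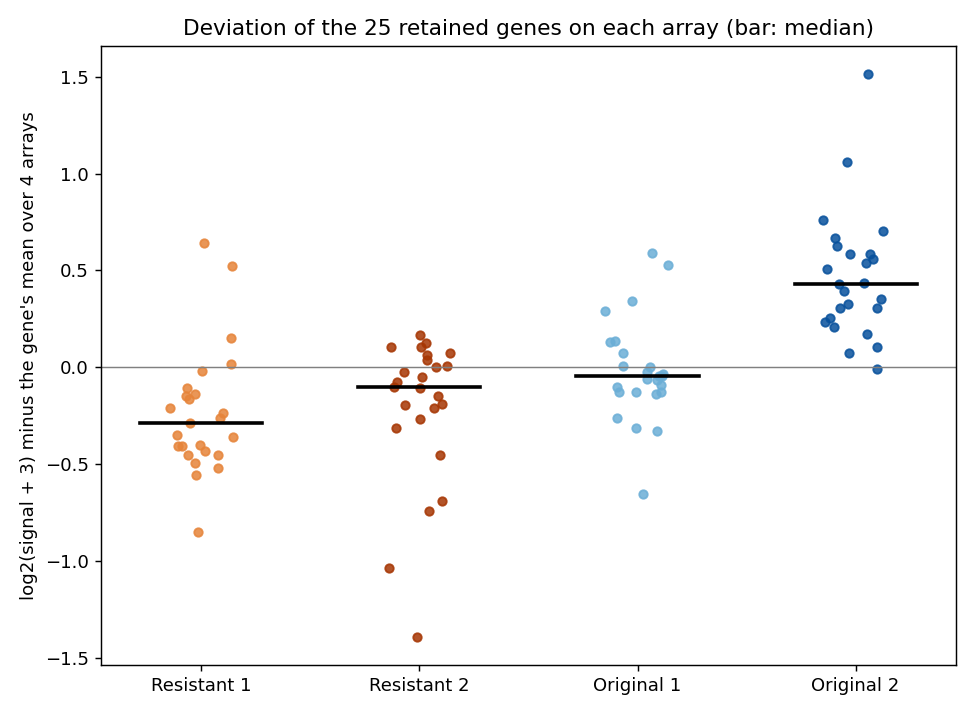
Each point is 1 of the 25 retained genes, drawn at its log2(signal + 3) on that array minus its mean over the 4 arrays, and the bar is the median. Original 2 stands above the other 3 arrays, with a median of 0.43 against -0.29, -0.10 and -0.045.

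Replicate 2 was compared with replicate 1 inside each population, with 1 array a side and so with no test. The median over the 25 genes was 0.21 in the resistant pool and 0.47 in the original population, where all retained probe sets had -0.0614 and -0.0613. Array 2 was the brighter in both populations for 17 of the 25 genes, against 24.9% of all probe sets, and the dimmer in both for 2 (Eno2 and Kdm3a), against 38.6%. The genes thus ran with the replicate number as well as with the population. In the original population 3 genes were over 2-fold higher on array 2, against 0.656% of all: Bnip3 by 1.44, Gbe1 by 1.24 and Ndrg1 by 1.09 on the log2 scale. None was over 2-fold lower there, against 2.99% of all. In the resistant pool 2 genes were over 2-fold lower on array 2, against 2.93% of all, Eno2 (-1.68) and Pdk1 (-1.13), and none over 2-fold higher, against 1.02%. Bnip3, which differed so widely between the original arrays, differed by 0.11 between the resistant ones. For 16 of the 25 genes (64%) the gap between the original arrays exceeded the difference between the populations, against 58% of all probe sets.

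**Figure D4:**
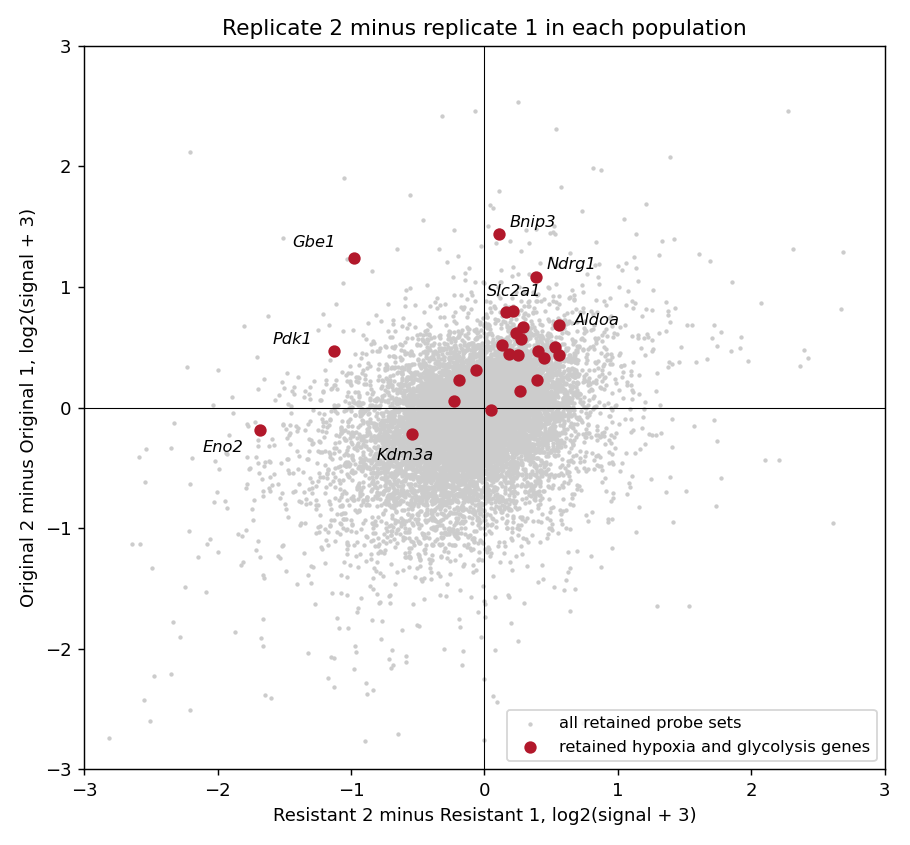
Replicate 2 minus replicate 1 on the log2(signal + 3) scale in the resistant pool (horizontal) and the original population (vertical), for all retained probe sets (grey) and the 25 retained genes (red); 9 grey points lie beyond the axis limits of 3. Most red points, 17 of 25, lie in the upper right part, where array 2 is brighter in both populations.

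Within replicate number the resistant array was the lower for 18 of the 25 genes at both numbers (72%), against 29.9% of all probe sets, and the numbers had opposite signs for the other 7. The median difference was -0.26 within number 1 and -0.53 within number 2. Without Original 2, the array that stood apart in its controls, 17 of the 25 genes were fitted below 0 with a median of -0.13, while 54.6% of all probe sets were below 0. Without Original 1 the counterparts were 24 genes, a median of -0.63 and 46.7% of all. The size of the group difference thus rested in large part on which original array was used.

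Other genes of these pathways were read from lists of the regulators, further HIF targets, further glycolytic and glycogen genes, the pentose phosphate pathway and the citric acid cycle. Of the other HIF subunits and regulators 4 were retained, and 0 passed the test. Arnt, the partner of HIF alpha, had signals of 131.3 and 118.1 in the resistant pool, against 203.1 and 134.4 in the original population (-0.40). Vhl, which carries hydroxylated HIF to degradation, had 131.9 and 138.6 against 189.2 and 176 (-0.43), and Hif3a, an alpha subunit with inhibitory forms, had 63.1 and 69.7 against 96.7 and 118.9 (-0.67). Egln2, a further prolyl hydroxylase, ran the other way with 665.4 and 641.3 against 516.9 and 622.2 (0.20). None of these 4 overlapped between the groups, where 18.3% of all retained probe sets were lower without overlap and 17.8% higher. Epas1, the alpha subunit HIF2, and Arnt2 lay under the filter, with signals of 27.1 and 21.5 against 39.5 and 1.4, and 27.7 and 3.7 against 50.3 and 3.

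Among 21 retained further hypoxia-induced genes, 15 were fitted below 0 and the median was -0.19. The groups did not overlap for 10, all lower, where 18.3% of all retained probe sets were lower without overlap and 17.8% higher. Without the block 0.228% of all retained probe sets passed in either direction. Vldlr, the lipoprotein receptor gene, was the 1 that passed lower, with 66.6 and 57.1 in the resistant pool against 372.2 and 243.4 in the original population (-2.23; limma, adjusted p = 0.035), and 0 passed higher. Ak4, a mitochondrial adenylate kinase, had 226 and 296.2 against 371 and 519.2 (-0.76), and Bhlhe40, a transcriptional repressor, had 1182.1 and 1259.7 against 1572.4 and 1908.1 (-0.51). Both passed lower with the replicate number as a block. Ddit4, an inhibitor of mTOR signalling, passed higher in that fit (0.54), with 1977.4 and 1318.7 against 907.1 and 1350.2. Its gap lay within number 1 (1.12) and not within number 2 (-0.035). Kdm4b (-0.80), Angptl4 (-0.63) and Stc2 (-0.59) were lower without overlap and did not pass in either fit.

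Of 11 retained further genes of glycolysis and glycogen, 7 were fitted below 0, the median was -0.11 and 0 passed. Slc16a1, the lactate and pyruvate transporter MCT1, had 1922.2 and 2435.7 in the resistant pool, against 3489.9 and 2972.8 in the original population (-0.57). Gyg, the glycogenin that primes glycogen chains, had 461 and 476.4 against 719 and 783.3 (-0.68). Both separated the groups and passed lower with the replicate block, where 3.09% of all retained probe sets passed lower. Gyg, like the probe set used for Gys1, differed little between the arrays of each population. Ldhb (-0.91), Pdk3 (-0.46) and Pgm1 (-0.41) were also lower without overlap. In this list 5 genes were lower and 1 higher without overlap, against 18.3% and 17.8% of all retained probe sets. The higher 1 was Ugp2, with 1090.4 and 991.9 against 801.9 and 967.2 (0.24). Pfkm, the muscle phosphofructokinase, had 542.1 and 551.5 against 358.3 and 548.5 (0.30), and its groups overlapped.

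The pentose phosphate pathway had a median of -0.012 over 7 retained genes and the citric acid cycle with pyruvate oxidation one of 0.024 over 21, and 0 genes passed in either list with or without the block. In the pentose phosphate list Rpia (-0.50) was lower and Taldo1 (0.13) higher without overlap. In the citric acid cycle list 6 genes were higher and 5 lower without overlap, against 17.8% and 18.3% of all retained probe sets. Of the 21 genes, 12 were fitted above 0. Mpc1, a subunit of the mitochondrial pyruvate carrier, had 1265.5 and 1203.4 in the resistant pool, against 1569.8 and 1535.2 in the original population (-0.33). Mdh2, the mitochondrial malate dehydrogenase, had 7173.7 and 8207.8 against 5929.5 and 6769.6 (0.28), and Idh3a, a subunit of isocitrate dehydrogenase, had 2431.5 and 3173.3 against 3266.3 and 3373.8 (-0.26). The difference between these lists and the hypoxia and glycolysis genes was not tested.

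**Figure D5:**
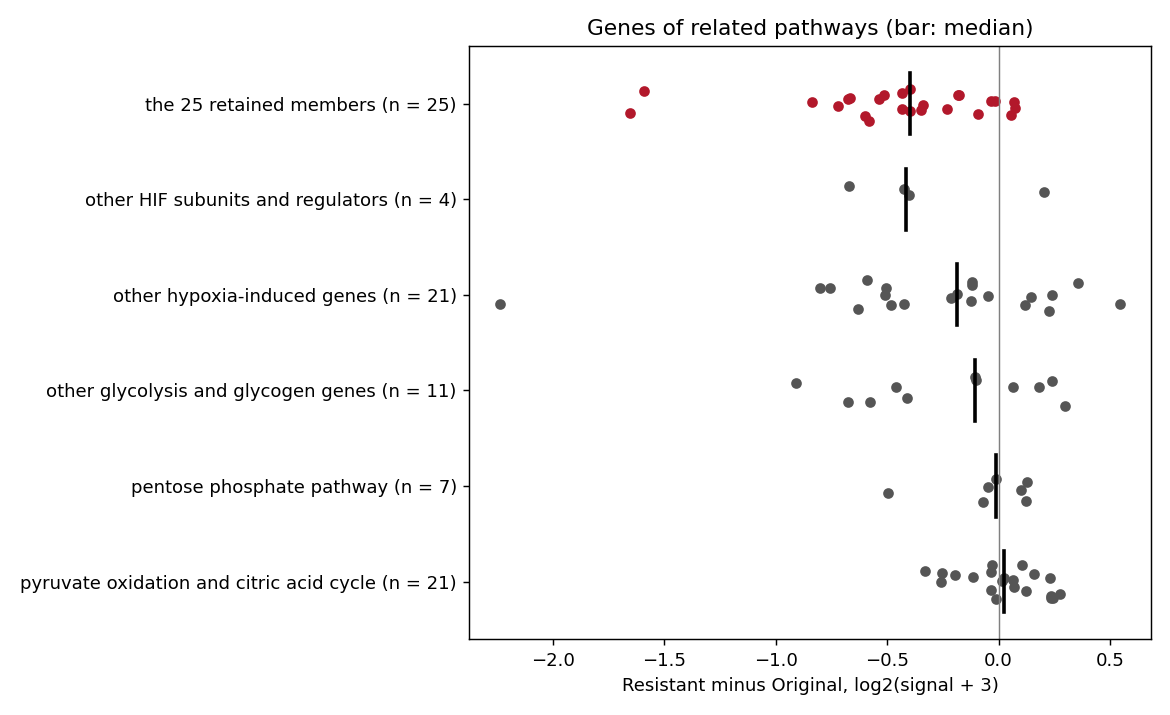
Resistant minus Original on the log2(signal + 3) scale, 1 point per retained gene and a bar at each list's median, for the 25 hypoxia and glycolysis genes (red) and 5 lists of related pathways (grey). The median was -0.40 for the 25 genes, -0.19 for further hypoxia-induced genes and 0.024 for the citric acid cycle with pyruvate oxidation.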

How the data were processed

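RNA from 4 NF639 cultures was measured on Affymetrix arrays, 1 array each. The authors deposited signal intensities made with MAS5, per the submitters' processing notes, which give no version or setting. The 2% trimmed mean of the deposited intensities ran from 496.76 to 497.83, so that a global change in RNA content would not show. Precision is limited by the number of arrays, as intensities carry no counts.

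Of 22690 probe sets, 64 were controls, 20393 had 1 symbol in the platform annotation, 691 had several, and 1555 that are not controls had none. The trimmed means were made equal (factors 0.999 to 1.0012), and log2(signal + 3) was taken, where 3 is the rounded 10th percentile of signals. Probe sets under the 40th percentile of mean signal (51.87) were left out. The contrast of Resistant minus Original was fitted with limma 3.58.1 (R 4.3.3; eBayes with a trend, prior degrees of freedom 8.12), with a threshold of 0.05 after Benjamini-Hochberg adjustment. The prior degrees of freedom were infinite in the fit with the replicate block. With 2 arrays a group, an exact permutation test cannot go below p = 0.333, so none was run. In 10 simulations with 200 of 13576 probe sets changed, the procedure recovered 32.3% of 2-fold, 84.9% of 4-fold and 95% of 8-fold changes. Of the simulated calls, 5.56% were false. The errors were drawn independently from the spread that limma fitted, so a shift shared by arrays of a replicate number was not simulated.

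The genes, the pathway lists and the tests were chosen with earlier results of these data known. The text names all 36 genes, the measured HIF regulators, and from each other list the genes that passed with or without the replicate block plus up to 3 with the largest difference among those whose arrays did not overlap. Pfkm, Ugp2 and Gapdh were named after their values were seen. Promoters were to be drawn from at most 6 genes by size of difference, and the first 4 are printed.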

Additional observations from a re-analysis of the deposited data

Results flagged for a closer look

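Gbe1, the glycogen branching enzyme, was singled out because its difference between the populations had opposite signs at the 2 replicate numbers, both over 2-fold. Resistant minus Original was 1.18 within number 1 (165.1 against 71.4) and -1.04 within number 2 (82.3 against 172.3) on the log2(signal + 3) scale. The difference between the numbers was not tested, and Gbe1 has 1 probe set on the array.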

How the results depend on the processing

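The median difference and the count below 0 of the retained genes kept their sign and stayed within 1.5 times under several other settings. That count was chosen after seeing the data. The settings were pseudocounts of 17 and 64, no filter, a filter at the 60th percentile, quantile normalisation and no variance trend. Further ones were the mean over a gene's probe sets, and a filter on mean log2 values chosen after seeing the data. These settings retained 25 genes, except for no filter (28 of 32 below 0) and the filter at the 60th percentile (19 of 21 below 0). Among unmarked probe sets alone, 15 of 16 genes were below 0. Leaving out 1 array gave medians from -0.63 (without Original 1) to -0.13 (without Original 2), and 24 to 17 genes below 0; between 0 and 3 genes then passed lower (Slc2a1, Pdk1 and Bnip3 without Original 1, Pdk1 without Resistant 1). In these fits 1 group is a single array that is assumed to vary like the other group. Those passes thus rest on the spread of 1 pair and on a spread pooled over probe sets.
With the replicate number as a block 11 genes passed lower, and over all probe sets 320 passed higher and 420 lower, against 12 and 19 without it. The differences between replicates correlated between the populations at 0.35 over 13576 probe sets; the labels do not pair the arrays, and 2 pairs do not settle it. Of all probe sets, 1 passed higher and 4 lower without a filter and also without a variance trend, 3 and 8 with the filter at the 60th percentile, 1 and 7 with quantile normalisation, and 24 to 68 and 53 to 57 with 1 array left out; the cause was not tested.
Signs turned for 10 genes that did not pass in any of these fits, and 2 of them, Ndrg1 (-0.43) and Eno2 (-0.40), had differences about as large as the median of the 25. The difference of Vegfa was 0.0001 with quantile normalisation and 0.034 over its probe sets. With 1 array left out the ranges were -0.15 to 0.12 for Vegfa, -0.19 to 0.12 for Egln1, -0.038 to 0.19 for Hk1, -0.40 to 0.22 for Hk2, -0.40 to 0.042 for Pgk1, -0.38 to 0.0145 for Pkm, -1.24 to 0.45 for Eno2, -0.97 to 0.11 for Ndrg1, -0.23 to 0.34 for P4ha2 and -0.55 to 0.69 for Gbe1. Small differences in dim genes are limited by signal over background.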

Other observations

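Gapdh, the glycolytic enzyme often used as a loading control, had no probe set with its symbol alone outside the control probe sets. Its 3′ control probe set had signals of 10236.6 and 13318.3 in the resistant pool and 11924.5 and 12666.8 in the original population. The resistant arrays enclosed the original ones, and array 2 was brighter than array 1 by 1.30 times in the resistant pool and by 1.06 times in the original population. As a control it took no part in the tests.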
